A study of Mus musculus with 8 samples.

Results

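The 10 genes described here encode subunits of the NADPH oxidases of colon epithelium and of phagocytes, together with the inducible nitric oxide synthase. They are Duox2, Duoxa2, Nox1, Noxo1, Noxa1, Cyba, Cybb, Ncf1, Ncf4 and Nos2, and they were chosen by symbol from the 15859 genes of the deposited count table. All 10 were in the table, and all 10 passed the filter on low counts, a mean normalized count above 5 over the 8 samples, which kept 14371 genes for testing.

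NADPH oxidases move electrons from NADPH across a membrane to oxygen and make superoxide or hydrogen peroxide. In the colon, DUOX2 with its maturation factor DUOXA2, and NOX1 with its partners NOXO1 and NOXA1, are epithelial enzymes that act at the mucosal surface. CYBB (gp91phox) with NCF1 and NCF4 forms the oxidase of neutrophils and macrophages. CYBA (p22phox) is the membrane partner of both NOX1 and CYBB, and NOS2 makes nitric oxide from arginine in epithelial cells and macrophages exposed to inflammatory cytokines.

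Poly(A) RNA of distal colon was sequenced from male mice that carried wild-type Hsf1 (WT) or were Hsf1 null, the gene for heat shock factor 1, a transcription factor of the heat shock response. All mice were of a mixed BALB/c x 129SvEV background, were kept free of specific pathogens, and were given by the labels as 10 weeks old. Treated mice of either genotype received 10 mg/kg azoxymethane (AOM, a colon carcinogen) by intraperitoneal injection at 8 weeks of age. From day 7 they received drinking water with 1.5% DSS (dextran sulfate sodium, toxic to the colon lining) for 5 days. They are called day 15 here after the sample titles and the paper, which has the mice killed 3 days after DSS ended, whereas the labels' protocol stops with the last day of DSS. The series gives an age of 9.5 weeks, against 10 in the labels. Age-matched mice without treatment are labelled day 0. Each of the 4 groups held 2 mice, so a two-sided exact permutation test of 2 against 2 cannot go below p = 0.333. The loss of Hsf1 was not limited to a cell type, and each library came from whole distal colon tissue. The day 0 mice received neither agent, so AOM and DSS cannot be told apart.

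Total counts were 9393945 and 2553348 in WT day 0, 12440257 and 2675976 in Hsf1 null day 0, 11097367 and 9247665 in WT day 15, and 7379442 and 7593259 in Hsf1 null day 15, for replicates 1 and 2 in that order. Replicate 2 of both day 0 groups thus gave the smallest libraries of all 8. There, 1 read was worth 0.397 CPM (counts scaled by TMM-adjusted library size) in WT day 0 replicate 2 against 0.0821 CPM in Hsf1 null day 0 replicate 1. Hsf1 itself stood at 40.5 and 36.5 CPM in WT day 0, 14.0 and 11.9 in Hsf1 null day 0, 50.5 and 45.9 in WT day 15, and 13.5 and 9.09 in Hsf1 null day 15. All 4 null colons lay below all 4 WT colons, with 33 to 170 reads left at the locus in each null library, and which exons the null allele lacks is not given in the sources used here. The log2 fold change of Hsf1 in WT over null was 2.10 ± 0.30 (SE) at day 15 (edgeR adjusted p = 0.0137) and 1.57 ± 0.30 at day 0, where the unadjusted p was 0.000378 and the edgeR adjusted p 0.775.

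The day 15 colons of either genotype held more RNA of these genes than the day 0 colons of the same genotype. In WT, each of the 10 genes was higher in both day 15 colons than in both day 0 colons, an arrangement seen in 31.0% of all genes tested. The same held for each of the 10 in Hsf1 null colons, where the share among all genes was also 31.0%. A gene was called at an adjusted p under 0.05 (edgeR quasi-likelihood test, Benjamini-Hochberg adjustment over all genes tested) with an absolute log2 fold change above 1. By that rule 3 of the 10 (Duoxa2, Cyba and Nos2) were called higher in WT day 15 against 7.74% of all genes called in either direction, and the same 3 were called higher in Hsf1 null day 15 against 11.8% of all genes. Median log2 fold changes of the 10 were 1.58 in WT and 1.46 in Hsf1 null, beside medians of 0.00 and 0.05 over all genes tested.

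At day 15, WT colons held more than Hsf1 null colons of 3 called genes, Duox2, Duoxa2 and Nos2, where 3.17% of all genes were called. In a fit on the day 15 groups only, edgeR called none of these 3, and 6 of all genes. A replicate block ended the call of Duox2. None of these 3 calls held in all 8 fits that left out 1 library: Duox2 kept its call in 0 of them (without WT day 15 replicate 2 the edgeR adjusted p was 0.262), Duoxa2 in 3 and Nos2 in 4. There, 7 of the 10 were higher in both WT colons than in both null colons, beside 28.6% of all genes, and the median log2 fold change of the 10 was 0.87 beside 0.03 over all genes. At day 0 edgeR called 0 of the 10 and 0.0% of all genes, and DESeq2 called 0 of the 10. Yet 4 of them (Duox2, Duoxa2, Nox1 and Nos2) had an unadjusted p under 0.05, beside 6.29% of all genes. There, 6 of 10 were higher in both WT colons without overlap beside 18.4% of all genes, and the median log2 fold change was 0.68 beside 0.01 over all genes. For the interaction of genotype and day, edgeR called 0 of the 10 beside 0.00696% of all genes, 0 of the 10 had an unadjusted p under 0.05 beside 8.62% of all genes, and DESeq2 called 0 as well. No member was thus shown to respond differently in the 2 genotypes, although with 2 mice a group a p that misses the threshold does not show equal responses. The 4 comparisons share groups of samples. Their values stand side by side below and are not independent of each other. Each edgeR p-value sets a difference against a spread between mice that was estimated over all 4 groups and drawn towards that of other genes.

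**Figure D1:**
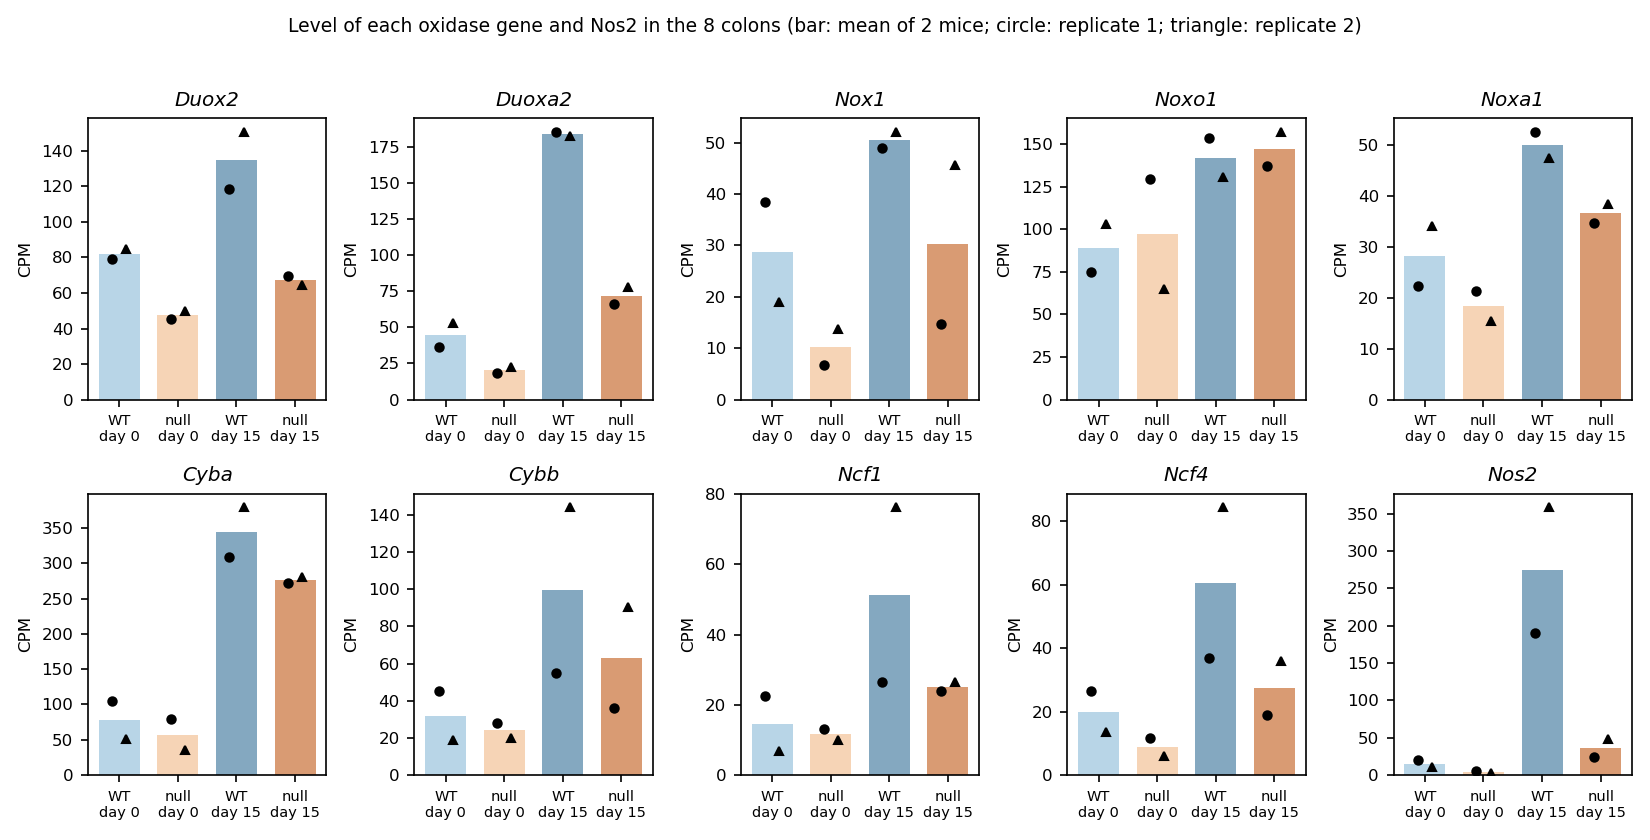
Level of each of the 10 genes in CPM (vertical axis, starting at 0) in the 4 groups. Bars are means of 2 mice, circles replicate 1 and triangles replicate 2; Duox2 and Duoxa2 are higher in WT than in Hsf1 null at both days, and Nos2 reaches 190 and 359 CPM in WT day 15 against 24.0 and 47.9 in Hsf1 null day 15.

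DUOX2, the dual oxidase that releases hydrogen peroxide at the apical surface, is encoded at chr2:122279247-122298449 on the minus strand (GRCm38, GENCODE M21). Duox2 stood at 79.4 and 84.6 CPM in WT day 0, 45.2 and 49.6 in Hsf1 null day 0, 118 and 151 in WT day 15, and 69.8 and 64.3 in Hsf1 null day 15. The 4 groups did not overlap: WT day 15 was highest, WT day 0 came next, and both treated null colons lay between the untreated WT and the untreated null colons. At day 15 the log2 fold change of WT over null was 1.00 ± 0.23 (SE), just past the threshold (edgeR adjusted p = 0.0457). At day 0 it was 0.79 ± 0.23 (unadjusted p = 0.00624, edgeR adjusted p = 0.775). The change from day 0 to day 15 did not pass the test in either genotype, at 0.72 ± 0.23 in WT (edgeR adjusted p = 0.0765) and 0.50 ± 0.23 in Hsf1 null (edgeR adjusted p = 0.156), and the interaction was 0.21 ± 0.32 (unadjusted p = 0.522). The call between genotypes at day 15 was lost in each of the 8 fits that left out 1 library, with log2 fold changes of 0.82 to 1.17 and an edgeR adjusted p of up to 0.262 (without WT day 15 replicate 2).

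Duoxa2 encodes the factor that DUOX2 needs to leave the endoplasmic reticulum, and lies head to head with Duox2 at chr2:122298900-122302885 on the plus strand, with 450 bases between the starts of the 2 genes. Duoxa2 stood at 36.4 and 52.8 CPM in WT day 0, 18.2 and 22.3 in Hsf1 null day 0, 185 and 182 in WT day 15, and 65.9 and 77.7 in Hsf1 null day 15. Again no groups overlapped, but here both treated null colons lay above both untreated WT colons. Duoxa2 rose by a log2 fold change of 2.06 ± 0.26 in WT (edgeR adjusted p = 0.00597) and 1.84 ± 0.27 in Hsf1 null (edgeR adjusted p = 0.0123), and the interaction of genotype and day was 0.22 ± 0.36 (unadjusted p = 0.563). WT exceeded null by 1.36 ± 0.25 at day 15 (edgeR adjusted p = 0.0274) and by 1.14 ± 0.27 at day 0 (unadjusted p = 0.00164, edgeR adjusted p = 0.775). The call at day 15 was lost in 5 of the 8 fits that left out 1 library (edgeR adjusted p up to 0.177, without Hsf1 null day 15 replicate 1). The call in Hsf1 null was lost without Hsf1 null day 0 replicate 2 (edgeR adjusted p = 0.125). Duoxa2 overlaps the antisense gene Duoxa1, which had no row of its own in the table; whether counting used strand is not given in the sources used here, so reads of the pair cannot be told apart.

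NOX1 is the catalytic oxidase of colon epithelial cells, encoded within chrX:134086421-134221956 on the minus strand, a span that also holds Cstf2, Xkrx and Arl13a. Nox1 stood at 38.5 and 19.1 CPM in WT day 0, 6.82 and 13.7 in Hsf1 null day 0, 49.0 and 52.2 in WT day 15, and 14.7 and 45.7 in Hsf1 null day 15. WT was above null without overlap at both days, but Hsf1 null day 15 replicate 2 lay near the WT day 15 colons and far above replicate 1. No comparison passed the edgeR test, whereas DESeq2 called Nox1 higher in Hsf1 null day 15 than in Hsf1 null day 0. The edgeR log2 fold change was 0.78 ± 0.52 from day 0 to day 15 in WT (edgeR adjusted p = 0.363), 1.64 ± 0.56 in Hsf1 null (edgeR adjusted p = 0.0786), 0.74 ± 0.52 in WT over null at day 15 (edgeR adjusted p = 0.419) and 1.60 ± 0.57 at day 0 (unadjusted p = 0.0181, edgeR adjusted p = 0.775). With each library left out in turn, these 4 values ran from 0.41 to 1.41, 0.60 to 2.25, 0.14 to 1.78 and 0.97 to 2.11. Without Hsf1 null day 15 replicate 1 edgeR called Nox1 in Hsf1 null (2.25), and without replicate 2 its value was 0.60.

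The cytosolic partners of NOX1 are its organizer NOXO1 (gene at chr17:24696234-24700529) and its activator NOXA1 (chr2:25085667-25095149). Noxo1 stood at 74.8 and 103 CPM in WT day 0, 129 and 65.0 in Hsf1 null day 0, 153 and 131 in WT day 15, and 137 and 157 in Hsf1 null day 15. Genotypes overlapped at both days, with log2 fold changes of WT over null of -0.05 ± 0.32 at day 15 and -0.15 ± 0.33 at day 0, so Noxo1 was the one member with a negative value in both. Noxa1 stood at 22.2 and 34.1 CPM in WT day 0, 21.3 and 15.5 in Hsf1 null day 0, 52.6 and 47.4 in WT day 15, and 34.7 and 38.4 in Hsf1 null day 15. Day 15 was above day 0 without overlap in both genotypes for both genes, but neither passed the edgeR test. The values from day 0 to day 15 were 0.68 ± 0.32 (WT) and 0.59 ± 0.32 (null) for Noxo1, and 0.85 ± 0.30 (WT) and 0.97 ± 0.30 (null, edgeR adjusted p = 0.0587) for Noxa1. The Noxa1 value in WT was 0.55 without WT day 0 replicate 1 and 1.19 without WT day 0 replicate 2. Without Hsf1 null day 0 replicate 1 edgeR called Noxo1 in Hsf1 null (1.18), and without replicate 2 its value was 0.19. Noxo1 overlaps Tbl3 and Noxa1 overlaps Entpd8, each on the other strand, so part of these counts may belong to those genes.

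CYBA stabilizes NOX1 and CYBB alike, so its RNA belongs to neither class. Cyba (chr8:122424776-122432930) stood at 104 and 50.4 CPM in WT day 0, 79.7 and 34.9 in Hsf1 null day 0, 308 and 380 in WT day 15, and 272 and 281 in Hsf1 null day 15. All 4 treated colons lay above all 4 untreated colons, and genotypes overlapped at day 0 but not at day 15. Cyba rose by a log2 fold change of 2.13 ± 0.42 in WT (edgeR adjusted p = 0.0197) and 2.25 ± 0.43 in Hsf1 null (edgeR adjusted p = 0.0169), and the difference between genotypes at day 15 was 0.32 ± 0.40 (edgeR adjusted p = 0.677). Cyba lost its call in WT without WT day 0 replicate 2 or WT day 15 replicate 2 (edgeR adjusted p up to 0.139), and in Hsf1 null without replicate 2 of either null group (up to 0.152). Over these fits its value ran from 1.74 to 2.77 in WT and from 1.79 to 2.99 in Hsf1 null. Cyba overlaps Gm20388 on the other strand, which had no row of its own in the table.

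Cybb, at chrX:9435252-9487771, encodes the catalytic subunit of the phagocyte oxidase. Its levels were 45.1 and 18.7 CPM in WT day 0, 28.2 and 20.1 in Hsf1 null day 0, 55.1 and 144 in WT day 15, and 36.0 and 90.3 in Hsf1 null day 15. Replicate 2 was by far the higher colon in both day 15 groups, and WT and null overlapped at both days. The log2 fold change from day 0 to day 15 was 1.60 ± 0.57 in WT (edgeR adjusted p = 0.105) and 1.37 ± 0.57 in Hsf1 null (edgeR adjusted p = 0.130), and that of WT over null at day 15 was 0.66 ± 0.55 (edgeR adjusted p = 0.505). Without 1 library, these 3 values ran from 0.75 to 2.42, 0.55 to 1.88 and -0.20 to 1.47, and the lowest in WT and between genotypes came without WT day 15 replicate 2.

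Ncf1 (p47phox, chr5:134220053-134229625) and Ncf4 (p40phox, chr15:78244801-78262580) encode cytosolic subunits that join CYBB when the phagocyte is activated. Ncf1 stood at 22.5 and 6.75 CPM in WT day 0, 13.2 and 10.1 in Hsf1 null day 0, 26.4 and 76.4 in WT day 15, and 23.9 and 26.5 in Hsf1 null day 15. The high value of WT day 15 came from replicate 2, while replicate 1 lay within the range of the treated null colons. Ncf4 stood at 26.5 and 13.5 CPM in WT day 0, 11.7 and 6.11 in Hsf1 null day 0, 36.8 and 84.5 in WT day 15, and 18.8 and 36.0 in Hsf1 null day 15. Here both WT colons were above both null colons at both days, by a log2 fold change of 1.14 ± 0.50 at day 15 (unadjusted p = 0.0453, edgeR adjusted p = 0.205) and 1.13 ± 0.53 at day 0 (unadjusted p = 0.0591). Without 1 library these ran from 0.42 (without WT day 15 replicate 2) to 1.69 and from 0.53 (without WT day 0 replicate 1) to 1.75. Ncf4 lies 1.74 Mb from Hsf1 on the same chromosome, so alleles linked to the targeted locus in this mixed background cannot be told apart from the loss of Hsf1. From day 0 to day 15 the log2 fold changes were 1.73 ± 0.57 (WT, edgeR adjusted p = 0.0854) and 1.09 ± 0.57 (null) for Ncf1, and 1.56 ± 0.51 (WT, edgeR adjusted p = 0.0850) and 1.55 ± 0.53 (null, edgeR adjusted p = 0.0773) for Ncf4. Without 1 library they ran from 0.77 to 2.92 and 0.93 to 1.32 for Ncf1, and from 0.84 to 2.17 and 0.999 to 2.16 for Ncf4, lowest in WT without WT day 15 replicate 2. Without WT day 15 replicate 1 edgeR called both genes in WT (2.30 for Ncf1 and 2.04 for Ncf4). DESeq2 called all 3 phagocyte genes in WT day 15 and Cybb, Ncf4 and Nox1 in Hsf1 null day 15. Ncf1 overlaps Gtf2ird2 on the other strand.

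NOS2 gave the largest fold changes of the 10 genes. Nos2 (chr11:78920787-78960254) stood at 19.8 and 10.7 CPM in WT day 0, 5.26 and 2.52 in Hsf1 null day 0, 190 and 359 in WT day 15, and 24.0 and 47.9 in Hsf1 null day 15. The 4 groups did not overlap; both treated null colons were above the untreated WT colons, and below both treated WT colons. Behind the lowest value, Hsf1 null day 0 replicate 2, stood 7 reads. Nos2 rose 17.3-fold in WT (log2 fold change 4.11 ± 0.50, edgeR adjusted p = 0.00591) and 8.33-fold in Hsf1 null (3.06 ± 0.51, edgeR adjusted p = 0.0139). WT exceeded null 7.62-fold at day 15 (2.93 ± 0.46, edgeR adjusted p = 0.0198), and by 1.88 ± 0.52 on the log2 scale at day 0 (unadjusted p = 0.00453, edgeR adjusted p = 0.775). The interaction of genotype and day was 1.05 ± 0.67 (unadjusted p = 0.150, edgeR adjusted p = 0.693). Over the alternative fits this interaction ran from 0.28 to 1.64. The call in WT held in all 8 fits that left out 1 library, and that in Hsf1 null was lost without Hsf1 null day 0 replicate 2 (edgeR adjusted p = 0.141). The call at day 15 was lost in 4 of the 8 (up to 0.123, without Hsf1 null day 15 replicate 1). Over these fits the size of the change ran from 12.0- to 25.6-fold in WT and from 5.52- to 14.2-fold in Hsf1 null, and that of WT over null at day 15 from 5.28- to 11.4-fold.

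**Figure D2:**
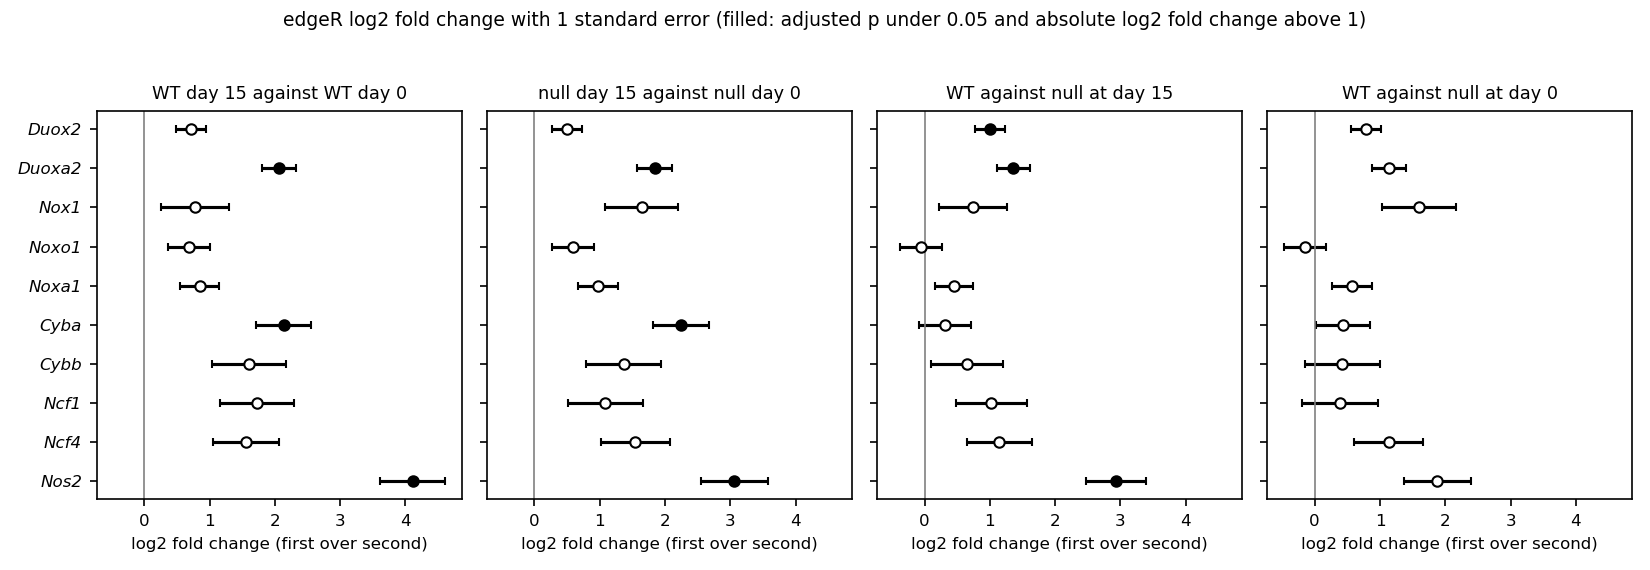
edgeR log2 fold change of each gene in 4 comparisons (horizontal axis, first group over second; whiskers are 1 standard error). Filled points passed both thresholds; 3 genes are filled in each of the first 3 comparisons and 0 at day 0, where Noxo1 alone lies below 0.

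Leaving out 1 library changed the number of calls among all genes as well as among the 10. At day 15 between genotypes edgeR called 0 of the 10 without Hsf1 null day 0 replicate 1, Hsf1 null day 0 replicate 2, WT day 15 replicate 2 or Hsf1 null day 15 replicate 1. In those 4 fits it called 12, 12, 19 and 30 of all 14371 genes, against 455 with all 8 libraries, so few calls were left for any gene. Without WT day 15 replicate 1 only Nos2 was called, beside 345 of all genes, and without any of the other 3 libraries Duoxa2 and Nos2 were, beside 348 to 871. The log2 fold changes of Duox2, Duoxa2 and Nos2 stayed positive in all 8 fits. From day 0 to day 15 in Hsf1 null, edgeR called 0 of the 10 and also 0 of all genes without Hsf1 null day 0 replicate 2. In WT at least Duoxa2 and Nos2 were called without any 1 library.

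Epithelial and phagocyte oxidases were set side by side in each colon as the log2 ratio of their CPM with 0.5 added to each count. The ratio of Duox2 to Cybb was 0.82 and 2.17 in WT day 0, 0.68 and 1.29 in Hsf1 null day 0, 1.10 and 0.06 in WT day 15, and 0.95 and -0.49 in Hsf1 null day 15. All 4 groups overlapped, and in both day 15 groups replicate 2, the colon with more Cybb, had the lower ratio. With counts thinned to the smallest library this overlap did not hold throughout: Hsf1 null day 15 (0.72 and -0.57) then lay below both WT day 0 (0.78 and 2.17) and Hsf1 null day 0 (0.78 and 1.26). The ratio of Nox1 to Cybb was -0.23 and 0.03 in WT day 0, -2.04 and -0.55 in Hsf1 null day 0, -0.17 and -1.47 in WT day 15, and -1.28 and -0.98 in Hsf1 null day 15. At day 0 both WT colons lay above both null colons, and at day 15 the genotypes overlapped. No test was made of these ratios.

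Among the 5 epithelial genes (Duox2, Duoxa2, Nox1, Noxo1 and Noxa1), the log2 fold change from day 0 to day 15 ran from 0.68 to 2.06 in WT (median 0.78) and from 0.50 to 1.84 in Hsf1 null (median 0.97). Among the 3 phagocyte genes it ran from 1.56 to 1.73 in WT (median 1.60) and from 1.09 to 1.55 in Hsf1 null (median 1.37). Between genotypes the epithelial median was 0.74 at day 15 and 0.79 at day 0, and the phagocyte median 1.03 at day 15 and 0.42 at day 0. These medians moved with single libraries. Leaving out 1 library at a time, the WT medians over time ran from 0.67 to 0.94 (epithelial) and from 0.77 to 2.42 (phagocyte), and the Hsf1 null medians from 0.60 to 1.18 and from 0.999 to 1.88. At day 15 between genotypes they ran from 0.37 to 0.95 and from 0.0653 to 1.60, and at day 0 from 0.73 to 0.87 and from -0.39 to 0.91. The lowest phagocyte values over time in WT and at day 15 came without WT day 15 replicate 2, where the classes had medians of 0.79 (epithelial) and 0.77 (phagocyte) over time in WT. Duoxa2 lay above the phagocyte genes in both genotypes' changes over time and Duox2 lay below them, while Nox1 lay below all 3 in WT (0.78) and above all 3 in Hsf1 null (1.64). The SEs were 0.23 for Duox2, 0.52 to 0.57 for Nox1 and 0.55 to 0.57 for Cybb.

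**Figure D3:**
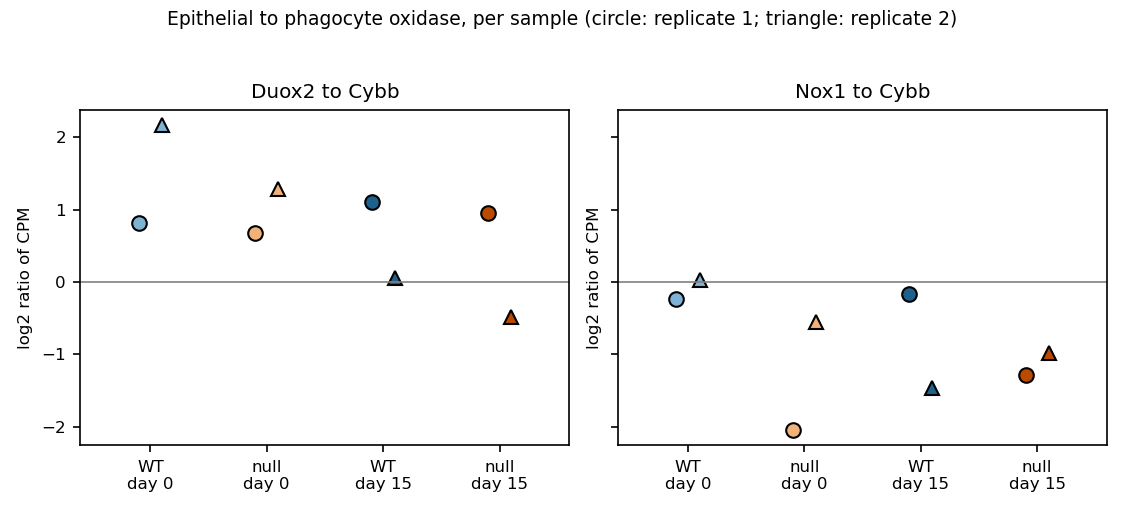
Log2 ratio of CPM of Duox2 to Cybb and of Nox1 to Cybb (vertical axis) in each colon by group. Circles are replicate 1 and triangles replicate 2; the ratio of Duox2 to Cybb is lowest in Hsf1 null day 15 replicate 2, at -0.49. CPM here is not divided by exon length, so the position of 0 has no meaning of its own.

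Per kilobase of exon, the order of levels can be read between genes, within a limit. Counts of Duoxa2, Nox1, Noxo1, Noxa1, Cyba and Ncf1 may hold reads of the genes that overlap them, so their places are uncertain. In WT day 0 the mean CPM per kilobase was 74.5 for Cyba, 29.5 for Noxo1, 28.0 for Duoxa2, 17.4 for Noxa1, 12.1 for Duox2, 9.89 for Ncf4, 8.71 for Nox1 and 5.49 for Cybb, then Ncf1 (6.15 and 1.84 in the 2 colons), and 3.46 for Nos2. Cyba was above each of the others in both WT day 0 colons, and Duoxa2, Noxa1 and Duox2 did not overlap. The other neighbours overlapped between colons. In WT day 15 the CPM per kilobase was 331 for Cyba, 115 for Duoxa2, 62.2 for Nos2, 47.1 for Noxo1, 30.9 for Noxa1, 30.0 for Ncf4, 19.9 for Duox2, 17.2 for Cybb, 15.3 for Nox1 and 14.0 for Ncf1. Nos2 thus moved from the last place to the third, where its colons (43.1 and 81.4) overlapped those of Noxo1 (50.9 and 43.4), and Duoxa2 (116 and 114) stood apart from its neighbours. In Hsf1 null Nos2 was last at day 0 (0.881) and ninth at day 15, at 8.15 CPM per kilobase, between Nox1 (9.14) and Ncf1 (6.88), with overlapping colons, below Cyba (266), Noxo1 (48.8) and Duoxa2 (45.1).

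Summed by list, markers of blood cells were highest in the WT day 15 colons, though single markers such as Adgre1 were not. The summed CPM of 13 leukocyte, macrophage and monocyte markers, of which Lyz2 was the most abundant, was 1165 and 491 in WT day 0, 517 and 638 in Hsf1 null day 0, 1487 and 2438 in WT day 15, and 381 and 902 in Hsf1 null day 15. At day 15, 12 of the 13 were higher in both WT colons than in both null colons (28.6% of all genes tested), and none of the 13 was at 0 in any sample. The sums of the other 3 groups overlapped. Of the 13, 2 were higher without overlap in Hsf1 null day 15 than in Hsf1 null day 0, beside 31.0% of all genes tested. By that count 4 of 9 neutrophil, 5 of 5 T cell and 3 of 6 B and plasma cell markers were higher there. Cybb, Ncf1 and Ncf4 all were. For B and plasma cells 1 marker was lower, Jchain, the most abundant of the 6 (471 and 1378 CPM at day 0, 46.8 and 237 at day 15). Of 3 eosinophil markers 1 was higher and 1 lower. Among all genes tested, 30.3% were lower without overlap in this comparison. In WT 10 of the 13 were higher at day 15, also beside 31.0% of all genes. For neutrophils it was 9 of 9, for T cells 5 of 5, for B and plasma cells 5 of 6, for eosinophils 0 of 3. WT day 15 replicate 2, the colon with the most Cybb, Ncf1 and Ncf4, also had the highest sum of the 13. Of 12 neutrophil markers, 9 were in the table (Ly6g, Camp and Elane were not), and their sum, with S100a9 the most abundant, was 14.0 and 5.16 in WT day 0, 7.31 and 5.75 in Hsf1 null day 0, 154 and 569 in WT day 15, and 8.22 and 36.5 in Hsf1 null day 15. Ngp was at 0 in all 4 day 0 and both Hsf1 null day 15 colons, and S100a8 was at 0 in Hsf1 null day 0 replicate 2 and Hsf1 null day 15 replicate 1.

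The summed CPM of 12 colon epithelium markers, led by Krt19, was 15436 and 22755 in WT day 0, 28376 and 20402 in Hsf1 null day 0, 18655 and 22330 in WT day 15, and 36839 and 29817 in Hsf1 null day 15. At day 15, 11 of the 12 were lower in both WT colons than in both null colons, an arrangement seen in 26.3% of all genes tested, and none was at 0. From day 0 to day 15, 3 of the 12 were higher and 2 lower without overlap in WT, beside 31.0% and 31.5% of all genes. In Hsf1 null 7 were higher and 2 lower, beside 31.0% and 30.3%. Slc26a3 was among the lower markers in both genotypes. The sum of 7 smooth muscle markers, led by Acta2, was 7743 and 10613 in WT day 0, 7740 and 7511 in Hsf1 null day 0, 4017 and 2317 in WT day 15, and 5665 and 6522 in Hsf1 null day 15. The part of these shifts in the oxidase and Nos2 values was not tested, and in whole tissue fewer cells of a type and less RNA per cell cannot be told apart.

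Remaining sums were as follows. For 6 B and plasma cell markers, led by Jchain, the sum was 1955 and 1707 in WT day 0, 592 and 1425 in Hsf1 null day 0, 3251 and 3590 in WT day 15, and 231 and 465 in Hsf1 null day 15. For the 5 T cell markers in the table (Trac was not), led by Cd4, it was 33.2 and 12.7 in WT day 0, 12.4 and 10.4 in Hsf1 null day 0, 75.2 and 120 in WT day 15, and 30.4 and 58.8 in Hsf1 null day 15. Both lymphocyte sums were highest in the treated WT colons. For 6 fibroblast markers, led by Col1a1, it was 2479 and 918 in WT day 0, 771 and 1130 in Hsf1 null day 0, 2321 and 2344 in WT day 15, and 438 and 1408 in Hsf1 null day 15. For 5 endothelial markers, led by Pecam1, it was 140 and 87.7 in WT day 0, 104 and 118 in Hsf1 null day 0, 288 and 234 in WT day 15, and 63.1 and 130 in Hsf1 null day 15. Eosinophil markers (3 of 5 in the table, led by Siglecf; Epx and Ccr3 were not) summed to at most 5.65 CPM in any colon.

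Other genes of the oxidase complexes were taken from a fixed list of 10, of which 7 were in the table and tested. In WT day 15 against day 0, 1 was called higher and 1 lower (7.74% of all genes called). In Hsf1 null 0 were called higher and 1 lower (11.8% of all genes), and edgeR called 0 between genotypes at either day. Rac2, the GTPase that activates the phagocyte oxidase, stood at 93.0 and 29.0 CPM in WT day 0, 48.4 and 18.3 in Hsf1 null day 0, 198 and 443 in WT day 15, and 96.8 and 156 in Hsf1 null day 15. It rose in WT by a log2 fold change of 2.36 ± 0.61 (edgeR adjusted p = 0.0442), with WT day 15 replicate 2 again the highest colon, and its value in Hsf1 null was 1.87 ± 0.61 (edgeR adjusted p = 0.0668). Rac2 lost its call in 4 of the 8 fits that left out 1 library (edgeR adjusted p up to 0.221, without WT day 0 replicate 2), over which its value ran from 1.66 to 3.47. Nox4, an oxidase of mesenchymal cells, fell by 4.07 ± 1.02 on the log2 scale in WT (edgeR adjusted p = 0.0396), but rested on 40 and 2 reads at day 0 and 2 and 1 at day 15, and lost its call in 6 of the 8 fits (edgeR adjusted p up to 0.420, without WT day 0 replicate 1; values of -4.63 to -2.35).

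Rap1a, a small GTPase that associates with the phagocyte oxidase, fell by 1.69 ± 0.34 on the log2 scale in Hsf1 null (edgeR adjusted p = 0.0202), from 37.1 and 56.8 to 12.1 and 16.7 CPM. Its call was lost in 3 of the 8 fits (up to 0.166, without Hsf1 null day 0 replicate 2). Rac1 ranged from 510 to 1066 CPM and Duox1 from 0.657 to 3.72 CPM over the 8 colons, and neither was called. Duoxa1 had no row in the table.

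Of 17 other genes of nitric oxide metabolism, 16 were tested. None was called in WT (edgeR; 7.74% of all genes; median log2 fold change 0.53), and in Hsf1 null 2 were called higher and 2 lower at day 15 (11.8% of all genes; median 0.49). Between genotypes edgeR called 0 at day 15 (median 0.64), 0 at day 0 (median 0.24) and 0 for the interaction. Ddah1, which degrades the inhibitor dimethylarginine, stood at 8.38 and 6.47 CPM in Hsf1 null day 0 and 24.5 and 109 in Hsf1 null day 15, a log2 fold change of 3.13 ± 0.69 (edgeR adjusted p = 0.0237). In WT it stood at 41.5 and 14.3 CPM at day 0 and 122 and 161 at day 15, a value of 2.29 ± 0.63 that just missed the threshold (edgeR adjusted p = 0.0539), and the interaction was -0.84 ± 0.89 (unadjusted p = 0.371), or -1.53 to 0.61 without 1 library. Asl, which makes arginine, rose in Hsf1 null by 1.21 ± 0.29 (edgeR adjusted p = 0.0304). Leaving out 1 library lost the call of Ddah1 in 3 of 8 fits (edgeR adjusted p up to 0.201; values of 1.68 to 3.83) and that of Asl in 3 of 8 (up to 0.184; values of 0.85 to 1.74), in each case also without Hsf1 null day 0 replicate 2.

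Gucy1a3 and Gucy1b3, the subunits of the soluble guanylate cyclase that nitric oxide activates, fell in Hsf1 null by 2.28 ± 0.57 and 1.82 ± 0.53 on the log2 scale (edgeR adjusted p = 0.0323 and 0.0495). The call of Gucy1a3 was lost in 2 of the 8 fits that left out 1 library and that of Gucy1b3 in 7 (edgeR adjusted p up to 0.251 and 0.322), in both cases without Hsf1 null day 0 replicate 2. Values then ran from -3.27 to -1.51 and from -2.60 to -1.22. Their values in WT were -1.17 ± 0.54 and -0.62 ± 0.51. The neuronal synthase Nos1 ranged from 14.8 to 31.8 CPM and the endothelial synthase Nos3 from 1.08 to 13.3 CPM over the 8 colons. Neither was called, so Nos2 was the one synthase that passed the test in any comparison.

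Enzymes that remove superoxide and hydrogen peroxide made a list of 16, all tested. In WT day 15 against day 0, 3 were called higher and 0 lower (7.74% of all genes; median log2 fold change 0.25), and in Hsf1 null 1 was called higher (11.8% of all genes; median 0.09). In WT against null at day 15, 3 were called higher (3.17% of all genes; median 0.08), with 0 called by edgeR at day 0 (median -0.07) and 0 for the interaction. Gpx2, the glutathione peroxidase of gut epithelium, stood at 254 and 349 CPM in WT day 0, 246 and 208 in Hsf1 null day 0, 2441 and 3270 in WT day 15, and 609 and 1097 in Hsf1 null day 15. Both genotypes rose, WT by a log2 fold change of 3.25 ± 0.39 (edgeR adjusted p = 0.00591) and Hsf1 null by 1.91 ± 0.37 (edgeR adjusted p = 0.0174), and WT exceeded null by 1.74 ± 0.36 at day 15 (edgeR adjusted p = 0.0369). The interaction was 1.34 ± 0.50 (unadjusted p = 0.0242, edgeR adjusted p = 0.510). Its call in WT held in all 8 fits, while that in Hsf1 null was lost in 2 (without replicate 2 of either null group) and that at day 15 in 4 (edgeR adjusted p up to 0.238, without Hsf1 null day 15 replicate 1). Values ran from 1.42 to 2.28 in Hsf1 null and from 1.37 to 2.23 at day 15.

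Sod3, the extracellular superoxide dismutase, stood at 40.6 and 26.2 CPM in WT day 0, 24.1 and 19.0 in Hsf1 null day 0, 219 and 279 in WT day 15, and 26.5 and 54.6 in Hsf1 null day 15. Gpx3, the secreted glutathione peroxidase, stood at 89.6 and 78.2 CPM in WT day 0, 89.9 and 92.0 in Hsf1 null day 0, 426 and 374 in WT day 15, and 73.8 and 125 in Hsf1 null day 15. Both treated WT colons were the highest for both genes, and for Gpx3 the null groups overlapped. From day 0 to day 15 the log2 fold changes were 2.87 ± 0.38 for Sod3 and 2.25 ± 0.29 for Gpx3 in WT (edgeR adjusted p = 0.00597 for each), and 0.89 ± 0.37 and 0.13 ± 0.28 in Hsf1 null, which did not pass. Over the alternative fits the Hsf1 null value of Sod3 ran from 0.28 to 1.32. WT exceeded null at day 15 by a log2 fold change of 2.62 ± 0.37 for Sod3 and 4.01-fold for Gpx3 (edgeR adjusted p = 0.0137 for each), calls that were lost in 4 of 8 fits without 1 library (up to 0.0678 and 0.0771). In these fits Sod3 ran from 2.18 to 3.23 and Gpx3 from 1.66 to 2.44. The interaction was 1.98 ± 0.51 for Sod3 (unadjusted p = 0.00309, edgeR adjusted p = 0.381) and 2.12 ± 0.39 for Gpx3 (unadjusted p = 0.000321, edgeR adjusted p = 0.233), so neither passed with edgeR, whereas DESeq2 called both.

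Of 7 enzymes that supply NADPH, beside 7.74% of all genes in WT and 11.8% in Hsf1 null, 1 was called higher in WT day 15 (Pgd, log2 fold change 1.21 ± 0.27, edgeR adjusted p = 0.0297; list median 0.44) and 1 in Hsf1 null day 15 (Taldo1, 1.11 ± 0.25, edgeR adjusted p = 0.0238; list median 0.65). Pgd lost its call without any 1 of the 4 WT libraries (up to 0.167), and Taldo1 without replicate 2 of either null group (up to 0.175). In Hsf1 null the Pgd value was 0.94 ± 0.27 (edgeR adjusted p = 0.0486), short of the threshold on the fold change. The Taldo1 value in WT was 0.63 ± 0.24 (edgeR adjusted p = 0.128). None of the 7 was called by edgeR between genotypes at day 15 (median -0.10) or day 0 (median 0.29). Of 5 haem peroxidases 2 were tested and edgeR called 0 in any comparison.

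Cytokines and signalling genes known to induce these enzymes made a list of 21, of which 16 were tested; Ifng, Il6, Il17a and Il17f were below the filter and Il22 had no row in the table. In WT, 3 were called higher at day 15 (7.74% of all genes called; median log2 fold change 0.59), and in Hsf1 null 1 was called higher and 2 lower (11.8% of all genes; median 0.55). At day 15, 1 was called higher in WT than in null (3.17% of all genes; median 0.56), and at day 0 edgeR called 0 (median 0.29). Tnf stood at 7.35 and 4.37 CPM in WT day 0, 4.27 and 0.719 in Hsf1 null day 0, 35.9 and 44.9 in WT day 15, and 10.9 and 14.6 in Hsf1 null day 15. It rose in both genotypes, by 2.72 ± 0.53 in WT (edgeR adjusted p = 0.0189) and 2.09 ± 0.55 in Hsf1 null (edgeR adjusted p = 0.0377), and each call was lost in 3 of the 8 fits without 1 library (up to 0.131 and 0.178). The value in Hsf1 null ran from 1.57 to 4.11 over these fits, and Hsf1 null day 0 replicate 2 held 2 reads.

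Il1b stood at 2.65 and 2.38 CPM in WT day 0, 2.30 and 5.39 in Hsf1 null day 0, 11.6 and 72.6 in WT day 15, and 1.86 and 4.68 in Hsf1 null day 15. WT day 15 replicate 2 again stood highest, and the null groups overlapped. The log2 fold change of Il1b was 4.03 ± 0.87 over time in WT (edgeR adjusted p = 0.0265) and 3.66 ± 0.83 in WT over null at day 15 (edgeR adjusted p = 0.0460), and without WT day 15 replicate 2 these were 2.18 and 1.81 and were not called. In all, leaving out 1 library lost the call over time in 3 of 8 fits and that at day 15 in 7 of 8. The interaction of genotype and day for Il1b was 4.10 ± 1.22 (unadjusted p = 0.00717, edgeR adjusted p = 0.430). Over the alternatives this interaction ran from 2.29 to 4.91, and its lowest adjusted p was under 0.05. EdgeR called 0 of the 16 tested genes of the list for the interaction (median 0.32), beside 0.00696% of all genes. Myd88, the adaptor of Toll-like and interleukin-1 receptors, rose in WT by 1.37 ± 0.32 (edgeR adjusted p = 0.0328), a call lost in 3 of the 8 fits. Tlr4 fell in Hsf1 null by 1.89 ± 0.54 on the log2 scale (edgeR adjusted p = 0.0476), from 10.7 and 38.5 to 5.58 and 7.22 CPM. Its day 0 colons differed widely, and the call was lost in 7 of the 8 fits (up to 0.386, without Hsf1 null day 0 replicate 2). Ifngr1 was the other gene called lower there, by 1.27 ± 0.28 on the log2 scale (edgeR adjusted p = 0.0238), a call lost without any 1 of the 4 null libraries (up to 0.141).

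Genes whose pattern over the 8 colons was most like that of 4 members were ranked by the root mean square difference of log2 CPM, each gene centred on its own mean. Nearest to Duox2 were Zfp703 (0.13), Nr4a1 (0.14), Sdc3 (0.16) and Slx4 (0.16). Near to Nox1 were Stc1 (0.18), Loxl2 (0.29) and Ncapg (0.33). Nearest to Cybb were Gimap4 (0.17), Lcp1 (0.18), Pld4 (0.19) and Gimap8 (0.25), of which Lcp1 stood at 230 and 686 CPM in WT day 15 with replicate 2 the higher, as for Cybb. Nearest to Nos2 were Serpina3g (0.62), Hdc (0.63), Hp (0.63) and Lat (0.72). The difference grows with a gene's own spread over the colons, so it was not compared between members.

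Promoter sequences from RefSeq (GRCm38.p6) were matched for 8 of the 10 members, all but Ncf4 and Nos2. They were searched on both strands for the paired units of a heat shock element, GAANNTTC and TTCNNGAA, because the mice lack Hsf1, and for TTCNNNGAA (bound by STAT factors) and the NF-kappaB motif; TATAAA was added after the sequences had been seen. Among 32851 promoters of 250 bases, 6.69% held GAANNTTC, 7.17% TTCNNGAA, 7.02% TTCNNNGAA, 3.90% the NF-kappaB motif and 12.4% TATAAA. The Nox1 promoter held TTCNNGAA 2 times and the NF-kappaB motif 1 time, Noxa1 held the NF-kappaB motif, Ncf1 held TTCNNNGAA and Duoxa2 held TATAAA from -30 to -25. These letters were not found in the windows of Noxo1, Cyba and Cybb, and no match overlapped another. The Duox2 window, also without a match, lay for 222 of its 250 bases in GENCODE exons of Duox2, so it says little of the sequence before the start. The windows of Cybb (chrX:9469325-9469574) and Nox1 lay inside the GENCODE spans given above for these genes. Their RefSeq starts were thus not the starts of those spans.

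The 250 bases before the start are given for Duoxa2 and Cyba, which were called higher at day 15 in both genotypes, and for Nox1, which held the heat shock units. The Duoxa2 window (chr2:122298650-122298899, plus strand) lies wholly between the starts of Duoxa2 and Duox2; that of Cyba is chr8:122432941-122433190 and that of Nox1 chrX:134111855-134112104, both read on the minus strand. Each lies outside the exons of its gene in GENCODE M21, is written 5′ to 3′, and has the matched motifs in capitals (none in Cyba; in Nox1 TTCATGAA from -224 to -217, TTCCTGAA from -119 to -112 and the NF-kappaB motif from -91 to -82).
Duoxa2: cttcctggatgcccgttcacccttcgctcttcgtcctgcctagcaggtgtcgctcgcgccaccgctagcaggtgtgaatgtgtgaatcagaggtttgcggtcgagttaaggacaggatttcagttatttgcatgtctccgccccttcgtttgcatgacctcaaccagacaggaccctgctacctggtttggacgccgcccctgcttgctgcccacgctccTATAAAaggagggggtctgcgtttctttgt
Cyba: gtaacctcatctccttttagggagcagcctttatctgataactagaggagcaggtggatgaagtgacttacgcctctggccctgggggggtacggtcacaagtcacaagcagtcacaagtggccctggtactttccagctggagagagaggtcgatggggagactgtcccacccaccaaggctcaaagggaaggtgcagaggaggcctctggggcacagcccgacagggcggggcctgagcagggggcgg
Nox1: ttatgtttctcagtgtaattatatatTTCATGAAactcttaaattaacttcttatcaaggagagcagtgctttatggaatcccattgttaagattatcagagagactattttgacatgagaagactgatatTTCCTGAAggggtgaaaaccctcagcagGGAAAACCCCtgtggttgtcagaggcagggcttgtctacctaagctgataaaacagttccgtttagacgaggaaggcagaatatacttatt
A match describes letters in the window only.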

How the data were processed

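The authors aligned the reads of SENSE mRNA-Seq libraries to mm10 with STAR and deposited a table of raw counts per gene; the counting program is not given in the sources used here. A second deposited table, whose unit is a score, held the same counts divided by the size factors of DESeq2, and served only as a check. Columns were matched to samples by the labels' titles, and groups came from the labels.

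Counts were tested with edgeR 4.0.16 (R 4.3.3): TMM normalization, 1 quasi-likelihood model with the 4 groups on all 8 samples, genes with a mean size-factor-normalized count above 5, Benjamini-Hochberg adjustment over 14371 genes, and a call at adjusted p under 0.05 with an absolute log2 fold change above 1. The SE of a log2 fold change was its size divided by the square root of the F statistic. Ratios had 0.5 added to each count. DESeq2 1.42.0, other filters and scalings, thinning to the smallest library, a replicate block, fits on the groups compared only and leaving out samples were alternatives. The scripts were tested on simulated data. Coordinates and exon lengths came from GENCODE M21 (GRCm38).

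Genes named were the members, Hsf1, up to 4 called genes of each list with the largest changes, the listed oxidase complex genes and synthases, and the 4 genes most like each of Duox2, Nox1, Cybb and Nos2; some genes under this rule are not reported here. Ifngr1, single markers, overlapping genes and untested genes fall outside this rule; they were picked with the values already known. The members and lists were chosen with earlier results of these data known.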

Additional observations from a re-analysis of the deposited data

How the results depend on the processing

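The number of the 10 genes called was 3 from day 0 to day 15 in WT, 3 in Hsf1 null, 3 between genotypes at day 15, and 0 at day 0 and for the interaction. DESeq2 gave 6, 6, 3, 0 and 0. Fits on the groups compared only gave 0 at day 15. Leaving out 1 library at a time gave 2 to 5, 0 to 4, 0 to 2, 0 and 0, and Duox2 lost its day 15 call in all 8 of these fits. Leaving out both day 0 replicate 2 libraries, an alternative chosen after seeing the data, gave 0 throughout. With a replicate block the counts were 3, 3, 2, 0 and 0, since Duox2 at day 15 had an edgeR adjusted p of 0.0577; the replicate numbers are not known to pair mice.

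Among all genes the numbers called were 1112, 1692, 455, 0 and 1. DESeq2 called 1737, 2203, 1197, 18 and 130. Fits on the groups compared called 6 at day 15 and 2 at day 0. For the interaction, 2 were called with the replicate block, 2 without a filter and 4 after thinning. Without both day 0 replicate 2 libraries 4, 0, 18, 0 and 0 were called. Leaving out 1 library gave 113 to 1331, 0 to 1889, 12 to 871, 0 to 17 and 0 to 50.

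After thinning to the smallest library the ratio of Nox1 to Cybb in Hsf1 null day 15 replicate 1 was -1.53 in place of -1.28, and in Hsf1 null day 0 replicate 1 -2.36 in place of -2.04. The ratio of Duox2 to Cybb in Hsf1 null day 15 replicate 1 was 0.72 in place of 0.95, below both day 0 groups.

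Signs that reversed belonged to values that were not called. The 10 genes were followed in 5 comparisons, named list genes in the first 3, and Ddah1, Gpx2, Sod3 and Gpx3 also for the interaction. Ranges are over leaving out 1 library. In WT over time these were Rac1 -0.05 (-0.20 to 0.12; 0.11 without both day 0 replicate 2 libraries) and Nos1 0.11 (-0.31 to 0.63). In Hsf1 null they were Nox4 -0.46 (-0.91 to 0.80), Gpx3 0.13 (-0.30 to 0.47), Il1b -0.07 (-0.88 to 0.52; 0.50 without both), Duox1 0.70 (-0.96 to 1.70) and Nos1 0.37 (-0.19 to 0.77; -0.0553 thinned). Between genotypes at day 15 they were Noxo1 -0.05 (-0.17 to 0.0590), Cybb 0.66 (-0.20 to 1.47), Duox1 -1.04 (-1.82 to 0.62) and Nos1 -0.08 (-0.49 to 0.47; 0.0408 thinned). At day 0 they were Noxo1 -0.15 (-0.55 to 0.44), Cyba 0.43 (-0.21 to 1.17), Cybb 0.42 (-0.39 to 0.86) and Ncf1 0.39 (-0.81 to 0.91). For the interaction they were Duoxa2 0.22 (-0.0408 to 0.50), Nox1 -0.86 (-1.46 to 0.18), Noxo1 0.10 (-0.49 to 0.50; -0.0277 thinned), Noxa1 -0.12 (-0.42 to 0.21; 0.41 without both), Cyba -0.11 (-0.85 to 0.52), Cybb 0.24 (-0.62 to 1.05), Ncf1 0.64 (-0.32 to 1.83), Ncf4 0.01 (-0.71 to 0.62; -0.00515 without both) and Ddah1 -0.84 (-1.53 to 0.61). The cause of these shifts was not tested.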
